A study of Mus musculus with 10 samples.

Results

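The clustered protocadherin genes of the mouse lie in 3 groups, alpha, beta and gamma, one after the other on chromosome 18. Their m6A peaks were taken as all peaks on the plus strand of chromosome 18 that lay wholly between positions 36900000 and 37850000 (GRCm38). This gave 99 of the 21195 peaks in the deposited table. By the gene spans of the RefSeq annotation of that build, 14 peaks lay in alpha (36930285 to 37188897), 41 in beta (37264998 to 37521419) and 41 in gamma (37661775 to 37841873). The remaining 3 lay between the clusters.

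The study profiled N6-methyladenosine (m6A), a methyl mark on adenosines of mRNA, in neural progenitor cells cultured from the hypothalamus of E14.5 mouse embryos. METTL14 is a subunit of the complex that writes the mark. The libraries comprised 4 Mettl14 knockout m6A immunoprecipitations (IP) with 1 knockout input, and 4 control IP with 1 control input. All cells carried the floxed Mettl14 allele (Mettl14 f/f) and grew with FGF2 and EGF at 20 ng/ml each. The knockout cells received lenti-EGFP-Cre and the control cells lenti-EGFP, and EGFP+ cells were sorted after 72 h. The knockout therefore rested on Cre delivered in culture to cells that stayed positive for the marker, and the labels do not say how many embryos or cultures were pooled. Polyadenylated RNA from 30 µg of total RNA was cut to about 80 nt before the pull-down with an m6A antibody.

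Clustered protocadherins are adhesion proteins of the cell surface that bind the same isoform on a neighbouring cell, and neurons use them to tell their own branches from those of other cells. In the alpha and gamma clusters each transcript starts in one of many variable exons, which encodes the extracellular domains, the membrane span and part of the cytoplasmic tail, and is spliced to a small set of constant exons shared by the whole cluster. Beta genes consist of a single coding exon with no shared constant part. Each cell activates only some of the variable promoters, a choice tied to CTCF, cohesin and DNA methylation.

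The peak table holds 1 IP and 1 input read count per peak, with no genotype and no library named, so knockout and control could not be compared and no value has a spread between replicates. The read counts, log2 fold changes (IP over input) and adjusted p-values are the authors' values for each peak. Over all peaks the counts summed to 72308582 IP and 26633390 input reads. Ratios of IP to input reads below are unscaled, and their 95% intervals are exact Clopper-Pearson intervals. They cover counting error only: the labels name no molecular identifiers, so PCR copies may be counted more than once. Of 11 markers of neural progenitors, 7 had a peak somewhere (not Vim, Hes5, Fabp7 or Msi1), against 3 of 7 neuronal, 5 of 6 oligodendrocyte lineage, 3 of 5 astrocyte and tanycyte, and 0 of 6 microglial, blood and vessel markers. Over all protein-coding genes the share with a peak was 45.2%. A peak marks RNA called as enriched by the m6A antibody over input and is not a level of expression. Whether a peak depends on Mettl14 could not be read from these columns.

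In long stretches of the deposited table, the read counts of a row did not go with the coordinates of that row. A wider peak normally collects more input reads, so peak width was correlated with input reads in blocks of 500 rows, using the counts of the same row and of rows up to 8 places away. In 17 blocks (8500 rows, 40.1%) the same row gave the highest Spearman's rho, between 0.192 and 0.521, by a margin of at least 0.1; these blocks are called row-matched here. In 15 blocks (7195 rows, 33.9%) rho at the same row lay between -0.0733 and 0.0773, and counts listed 1, 2 or 4 rows earlier gave 0.185 to 0.365. The remaining 11 blocks were unclear. These correlations run across peaks of the same pooled libraries and are descriptive.

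Adjacent peaks of the same gene, both at most 500 bases wide, gave a separate view, since such neighbours come from the same transcripts. Their input reads correlated with rho = 0.813 over 657 pairs in the row-matched blocks, against 0.330 over 466 pairs in the blocks matched to another row and 0.325 over 303 pairs in the unclear ones. The origin of the mismatch was not tested. All 14 alpha peaks, 30 of the 41 beta peaks and 1 of the 3 peaks between clusters lay in row-matched blocks. Of the gamma peaks 37 lay in a block that matched the counts 4 rows earlier (rho = 0.212, against 0.0773 at the same row). The next best offset gave 0.111, so that block only just met the margin of 0.1. The other 4 gamma peaks lay in unclear blocks. Of the beta peaks 2 lay in a block matched to another row and 9 in unclear ones. Values of row-matched alpha and beta peaks are therefore given gene by gene, and gamma values are given as listed and as listed 4 rows earlier, side by side. A block's rho describes its 500 rows together (0.370 for the block of the alpha peaks). That rho does not show that each single row carries its own counts, and alpha and beta values hold only for rows that do. Positions, widths and the genes touched do not depend on the counts.

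**Figure D1:**
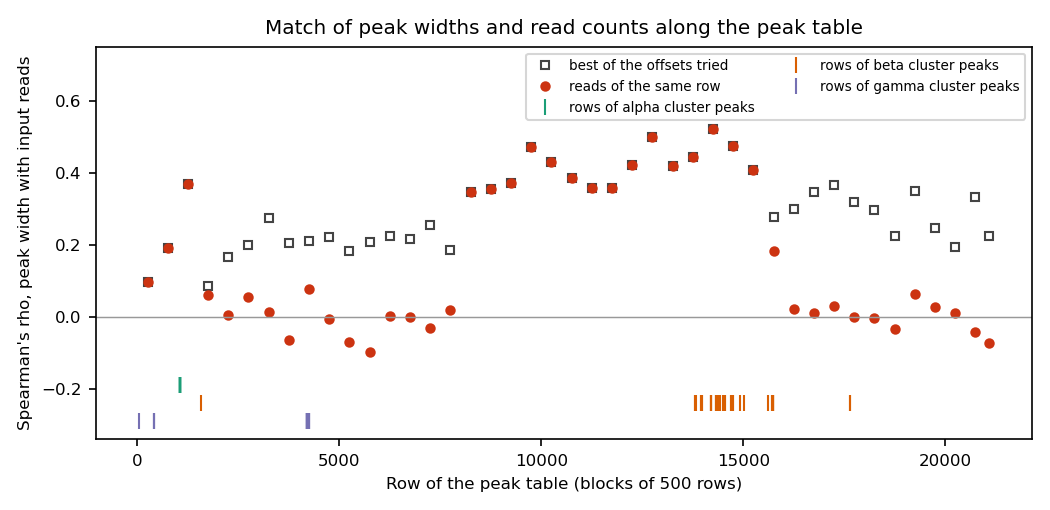
Spearman's rho of peak width with input reads in each block of 500 rows of the deposited table, in table order, for the counts of the same row and for the offset with the highest rho. Ticks show the rows that hold alpha, beta and gamma peaks: alpha and most beta rows lie where the same row gives the highest rho, and the gamma rows lie where rho at the same row is 0.0773.

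Taken as listed, the 99 peaks had a median log2 fold change (range) of 3.90 (1.77 to 5.17) in the authors' deposited table, against 3.06 (0.30 to 9.37) over all 21195 peaks. That median stood at the 77.4th percentile of all peaks. The 45 peaks in row-matched blocks had a median of 4.09 (2.57 to 5.17) in the authors' deposited table, against 3.0 over all 8500 peaks of such blocks. Their counts summed to 62965 IP and 12047 input reads, a ratio of 5.23 (5.13 to 5.33), against 2.93 over all peaks of those blocks. Of the 45, 43 exceeded the median of all peaks.

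All 99 peaks had an adjusted p below 0.05 in the authors' deposited table, where 100% of all peaks (to 3 digits) did so, and the highest adjusted p among them was 3.37e-06 in that table. Of the 99, 96 reached 2 on the log2 scale, as did 87.2% of all peaks, in the authors' deposited table. Fewer IP than input reads were listed for 1 of the 99, against 11.3% of all peaks. It was Pcdhgb5 peak 1, in an unclear block, with 104 IP and 105 input reads (ratio 0.990, 0.748 to 1.31). Wider than 10000 bases were 6 of the 99, against 13% of all peaks. Read depth was low at many members, so ratios of single peaks have wide intervals. Under 50 input reads were listed at 34 of the 99, against 2507 of all 21195 peaks. In row-matched blocks it was 24 of 45, against 787 of 8500. The members were thus not set against all peaks at like depth. On the log2 scale, 65 members with at least 50 input reads had a median of 3.89 in the authors' deposited table. All 18688 such peaks had 2.94 there. The 4531 peaks within a factor of 2 of the members' median input reads per 1000 bases had 3.32. The row mismatch also touches that measure.

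**Figure D2:**
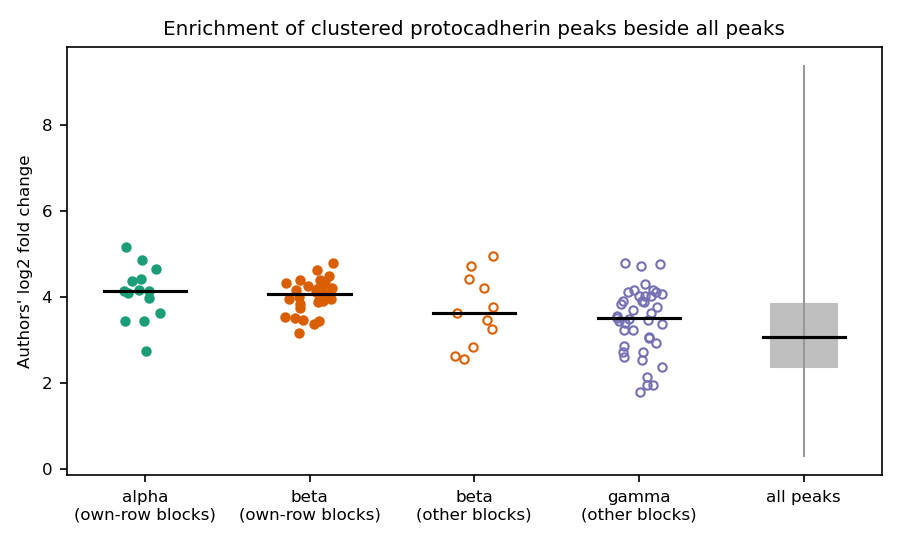
The authors' log2 fold change (IP over input) of each peak by cluster, beside all peaks (box, quartiles; line, range). Filled points are peaks in row-matched blocks and open points are the others: the 14 alpha peaks have a median of 4.13 and the 30 row-matched beta peaks a median of 4.06, against 3.06 over all peaks.

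Peaks touched 11 of the 14 alpha genes (not Pcdha1, Pcdha2 or Pcdha6), and 6 had a peak of their own. Alpha peaks were shallow and short, with a median width of 175 bases and a median of 26.5 input reads, and 8 of the 14 had under 50 input reads. Their counts summed to 7013 IP and 1433 input reads, a ratio of 4.89 (4.62 to 5.18). In the authors' deposited table their median log2 fold change was 4.13 (2.75 to 5.17), with 13 of 14 above the median of all peaks.

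The 3 highest alpha log2 fold changes in the authors' deposited table were 5.17 at Pcdha12 peak 2, 4.85 at the long peak from Pcdha7 to Pcdhac2 and 4.64 at Pcdha12 peak 1. Pcdha12 encodes an alpha isoform from the array of stochastically chosen exons, and its 3 peaks lay within the stretch taken as its exon, at 37020683, 37020883 and 37021008. They held 48, 38 and 59 IP reads, against 5, 4 and 11 input reads, and the ratio at peak 2 was 9.50 with an interval of 3.42 to 36.6. The long peak from Pcdha7 to Pcdhac2 was the deepest of the cluster, with 2756 IP and 529 input reads, so the highest values came from both shallow and deep peaks.

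Pcdhac2, one of the C-type isoforms that are expressed more uniformly than the stochastic ones, carried the short alpha peaks with the most IP reads. Its peak 2 (37144728, 1800 bases) held 1660 IP and 231 input reads, a ratio of 7.19 (6.26 to 8.28), and was listed at 4.41 (log2 fold change) in the authors' deposited table. Its peak 1 (37143878, 500 bases) held 352 IP and 73 input reads, a ratio of 4.82 (3.74 to 6.29), yet the log2 fold change in the authors' deposited table was 2.75, the lowest in alpha. Among the alpha peaks the order by the authors' fold change thus was not the order by the ratio of the listed reads, and the sources used here do not give the model behind the fold change.

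The other single exons were Pcdha3, Pcdha4, Pcdha5 and Pcdha8. Pcdha4 peak 1 held 176 IP and 32 input reads and was listed at 4.37 (log2 fold change) in the authors' deposited table, and its peak 2 held 70 IP and 12 input reads and was listed at 3.62. Pcdha3 peak 1 and Pcdha5 peak 1 listed the same counts, 342 IP and 97 input reads, and Pcdha5 peak 2 and Pcdha8 peak 1 also listed the same counts, 44 IP and 17 input reads. All 4 peaks were 125 bases wide. By chromosome, strand and both counts, 5 of the 14 alpha peaks (35.7%) repeated another peak, against 50 of all 21195 (0.236%). On the plus strand of chromosome 18 it was 6 of 412 (1.46%), these alpha peaks included. Alpha peaks had a median of 26.5 input reads, against 466 over all peaks, so the shares were not taken at like depth. The fifth alpha peak is Pcdha12 peak 3, whose 59 IP and 11 input reads recur at a peak outside the region. In both pairs of alpha peaks the members did not lie at like distances from their gene starts. Pcdha3 peak 1 began at 36948440 (gene start 36946088) and Pcdha5 peak 1 at 36960453 (gene start 36960276). Pcdha5 peak 2 began at 36962653, and Pcdha8 peak 1 at 36992388 (gene start 36992467). Across the pairs the distances were more alike: Pcdha3 peak 1 and Pcdha5 peak 2 began well past their gene starts. Pcdha5 peak 1 and Pcdha8 peak 1 began near theirs. The 4 peaks fill rows 1055 to 1058 in genomic order. Whether each of these rows carries its own counts was not tested. How reads with several matches were counted is not given by the sources used here, and the cause of the repeats was not tested. These isoforms are therefore uncertain.

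Variable and constant exons could be set against each other in alpha alone. Without an exon annotation, a variable exon was taken as up to 3500 bases from each gene start, and the constant stretch as everything from 3500 bases after the last variable start to the shared gene end, 37147178 to 37188897 (41720 bases). On that rule 11 peaks lay on 1 variable exon, 1 spanned several (Pcdha10 to Pcdha12, 12722 bases), 1 joined variable exons to the constant stretch and 1 lay on the constant stretch alone. The peak on the constant stretch (37160579, 24815 bases) held 1004 IP and 287 input reads, a ratio of 3.50 (3.07 to 4.0). The 11 single-exon peaks together held 3175 IP and 596 input reads, a ratio of 5.33 (4.88 to 5.82), so the intervals of the constant peak and this sum did not overlap on counting error alone. That gap rested on Pcdhac2 peak 2: without it the other 10 held 1515 IP and 365 input reads, a ratio of 4.15 (3.70 to 4.67), which overlaps the interval of the constant peak. With each repeated pair of counts also taken once, the 8 peaks left had a ratio of 4.50 (3.92 to 5.18), which overlaps it too. In the authors' deposited table the difference was smaller, where the constant peak was listed at 3.96 (log2 fold change), against a median of 4.14 over the 11. The constant peak is long enough to cross introns, and both minus-strand peaks of the alpha cluster lay within its coordinates. Their part in its reads was not tested.

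The joined peak ran over 183327 bases from Pcdha7 to past Pcdhac2, and held 2756 IP and 529 input reads, a ratio of 5.21 (4.75 to 5.73). Its log2 fold change in the authors' deposited table was 4.85. A peak of that length crosses introns, and the table marks each peak as 1 block, so the part of the peak that carried the reads cannot be told from it. All alpha peaks listed the same 14 gene identifiers (4 of them had a further one), so the exon of a peak was assigned by position only.

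Peaks touched 21 of the 22 beta genes, all but Pcdhb1. Beta thus had the most complete set of own peaks, and the counts of 16 of its genes could be read from row-matched blocks. The 30 row-matched beta peaks held 55771 IP and 10478 input reads, a ratio of 5.32 (5.21 to 5.44). Their median log2 fold change was 4.06 (3.17 to 4.79) in the authors' deposited table, and 30 of 30 exceeded the median of all peaks. As listed, all 41 had a median of 4.01 (2.55 to 4.95) in the authors' deposited table.

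The shape and the read depth of the peaks differed along the cluster, with exceptions in its later part. Pcdhb2 to Pcdhb7, the 6 genes at its start, carried 20 peaks (2 to 5 per gene) of a median width of 287.5 bases, which covered a median of 45.5% of the gene. Pcdhb8 to Pcdhb22, the following 15 genes, carried 18 peaks of a median width of 2575 bases, which covered a median of 78.5% (17.8 to 99.3), and 12 of the 15 had 1 peak alone. Of all beta peaks, 13 were wider than 2000 bases (2250 to 3150), and 11 of these began within 100 bases of the gene's annotated start. Their ends lay a median of 765 bases (18 to 2400) before the end of the gene. Genes without such a peak varied. At Pcdhb3 the first peak began 975 bases into the gene, and peaks covered 17.8% of Pcdhb3 and of Pcdhb13. At Pcdhb15 the first peak began 19 bases into the gene and peaks covered 87.7%, and at Pcdhb2 they covered 70.2%. The division at Pcdhb8 and the limits of 2000 and 100 bases were chosen after the values were seen.

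**Figure D3:**
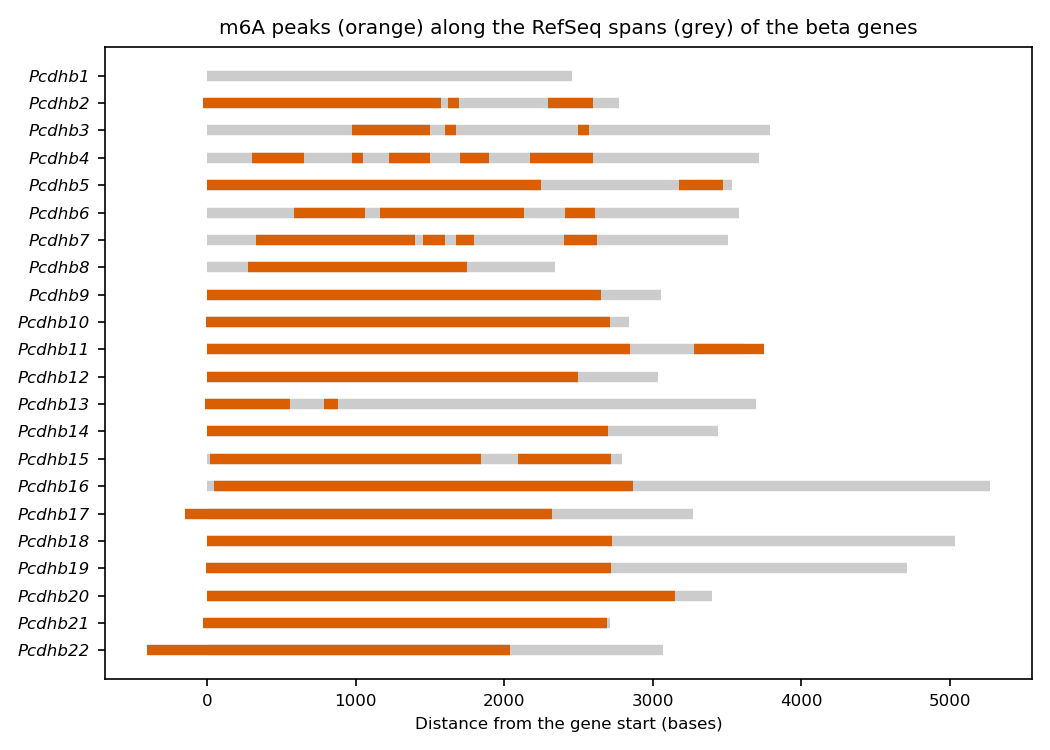
Map of each beta gene (grey bar, RefSeq span) with its m6A peaks (orange), by distance from the gene's start in bases. Pcdhb2 to Pcdhb7 carry 2 to 5 peaks each, of which 1 (at Pcdhb5) is wider than 2000 bases, and 12 of the 15 genes from Pcdhb8 to Pcdhb22 carry a peak wider than 2000 bases.

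Reads in peaks differed widely between beta genes, while the ratio of IP to input stayed within a narrow band. Over the 16 genes the ratio ranged between 4.53 at Pcdhb15 and 6.96 at Pcdhb8, with a median of 5.25. Input reads per 1000 bases of peak ranged between 49.5 at Pcdhb8 and 569 at Pcdhb20, with a median of 159. Fold changes and ratios are differences of IP over input, and reads per 1000 bases are levels within peaks. In RNA from a whole culture, fewer cells that use a gene and less RNA per cell cannot be told apart.

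Pcdhb3, Pcdhb4 and Pcdhb7 lay at the low end with 78.5, 52.8 and 60.3 input reads per 1000 bases in peaks. Together they held 1289 IP and 218 input reads, a ratio of 5.91 (5.12 to 6.86). Pcdhb8 and Pcdhb13 were at similar levels, 49.5 and 65.2 input reads per 1000 bases, while Pcdhb10, Pcdhb12, Pcdhb15 and Pcdhb21 lay between 137 and 160. Pcdhb14 had 315.

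The deepest run was Pcdhb16 to Pcdhb20, 5 neighbouring genes with 442 to 569 input reads and 2296 to 2814 IP reads per 1000 bases of peak, and Pcdhb22 followed with 2422 IP and 385 input reads. Pcdhb20 held 8864 IP and 1792 input reads, the most of the row-matched beta peaks, a ratio of 4.95 (4.70 to 5.21). Pcdhb18 held 7286 IP and 1218 input reads, a ratio of 5.98 (5.63 to 6.36), and Pcdhb19 held 6899 IP and 1231 input reads, a ratio of 5.60 (5.27 to 5.96). The interval of Pcdhb18 does not overlap that of Pcdhb20, and the intervals of Pcdhb18 and Pcdhb19 overlap. Pcdhb22 had a ratio of 6.29 (5.87 to 6.75) and Pcdhb12 of 6.69 (5.99 to 7.50), against 4.63 (4.17 to 5.15) at Pcdhb10 and 4.63 (4.13 to 5.19) at Pcdhb21. In the authors' deposited table the log2 fold changes of the genes from Pcdhb16 to Pcdhb22 lay between 3.84 at Pcdhb17 and 4.34 at Pcdhb22.

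**Figure D4:**
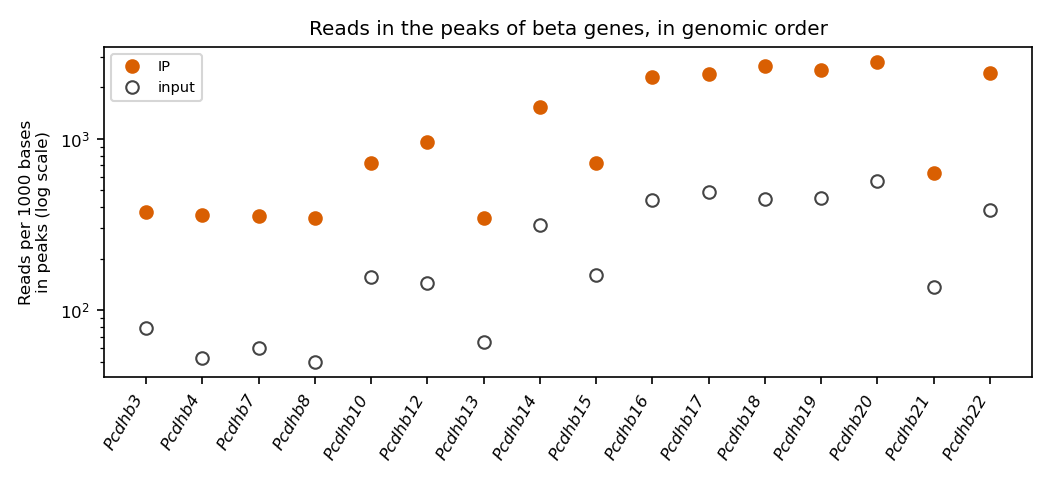
Reads per 1000 bases of peak in IP (filled) and input (open) for the 16 beta genes whose peaks all lie in row-matched blocks, in order along the chromosome, on a log axis. Input ranges between 49.5 at Pcdhb8 and 569 at Pcdhb20, and IP lies above input in all 16 genes, 4.53 to 6.96 times as high.

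The highest log2 fold changes among row-matched beta peaks were 4.79 at Pcdhb4 peak 5, 4.62 at Pcdhb4 peak 1 and 4.49 at Pcdhb7 peak 3 in the authors' deposited table. They held 121, 95 and 80 IP reads, against 12, 11 and 6 input reads, so these values came from shallow peaks. The rows of Pcdhb11 peak 2 and Pcdhb2 peak 1, which listed 4.95 and 4.72 in the authors' deposited table, lay in unclear blocks. The rows with the most IP reads in beta did so too. They were Pcdhb2 peak 2 (36834 IP and 7630 input reads over 75 bases), Pcdhb11 peak 2 (14693 IP and 3404 input reads) and Pcdhb2 peak 3 (14127 IP and 3643 input reads). Those counts cannot be assigned to these genes.

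In gamma, peaks touched 21 of the 22 genes, all but Pcdhga12, and 15 had a peak of their own. No gamma peak reached the constant stretch (37823046 to 37841873, 18828 bases), and the last one, Pcdhgc5 peak 3, ended 2098 bases before it. Of the 41 peaks 26 touched the variable stretch of 1 gene and 15 touched those of neighbouring genes, called joined here. Of the 26, 3 lay mostly before the start of their gene: Pcdhgb5 peak 1 (1760 of 1928 bases), Pcdhga9 peak 1 (1422 of 2138 bases) and Pcdhgc3 peak 1 (36417 of 37089 bases). Of the joined peaks 14 covered 2 genes and 1 covered 3, and their widths ran between 1757 and 12014 bases with a median of 3600. At 11 of the 15 the peak ended within 500 bases of the start of the last gene (median 145), and at 11 it began at least 2000 bases after the start of the first gene (median 2455). The 11 peaks were not the same in each count: the peak joining Pcdhgb1 and Pcdhga4 began 165 bases after its first gene start. Peaks that met both limits ran from late in the stretch taken as a variable exon, across the stretch between genes, past the next gene start. Exon ends were not annotated, so the number of joined peaks depends on the length taken: 11 at 2500 bases and 18 at 5000 bases. The limits of 500 and 2000 bases were chosen after the positions were seen.

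The counts of gamma gave different pictures by row. As listed, the 41 peaks had a median log2 fold change (range) of 3.50 (1.77 to 4.80) in the authors' deposited table, with 343585 IP and 132635 input reads and a ratio of 2.59 (2.57 to 2.61). For the 37 peaks of the block matched 4 rows earlier, the counts as listed gave a ratio of 2.44, and those 4 rows earlier gave 2.46 (2.45 to 2.48). Their median log2 fold change in the authors' deposited table was 3.49 by either reading. Nearly the same rows, the 4 deepest included, enter both sums, so their closeness is fixed by the shift and says nothing of the row match.

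The values of single genes differed between the readings, above all at Pcdhgc3, a C-type isoform. As listed, the deepest gamma rows belonged to Pcdhga11 peak 1 (83243 IP and 32146 input reads), the peak joining Pcdhga11 and Pcdhgb8 (69546 IP and 32847), Pcdhgb8 peak 1 (97176 IP and 41688) and Pcdhgb8 peak 2 (11291 IP and 5726). These 4 rows made up 53.3% of the IP and 67.5% of the input reads of all 99 members. With the values listed 4 rows earlier, the same 4 sets of counts fell on the 4 peaks of Pcdhgc3, which are 37089, 575, 825 and 175 bases wide. In their own rows those Pcdhgc3 peaks listed 2195, 319, 155 and 172 IP reads, against 393, 98, 31 and 45 input reads. Without Pcdhgc3, the 33 other peaks read 4 rows earlier held 42752 IP and 11063 input reads, a ratio of 3.86 (3.78 to 3.95).

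**Figure D5:**
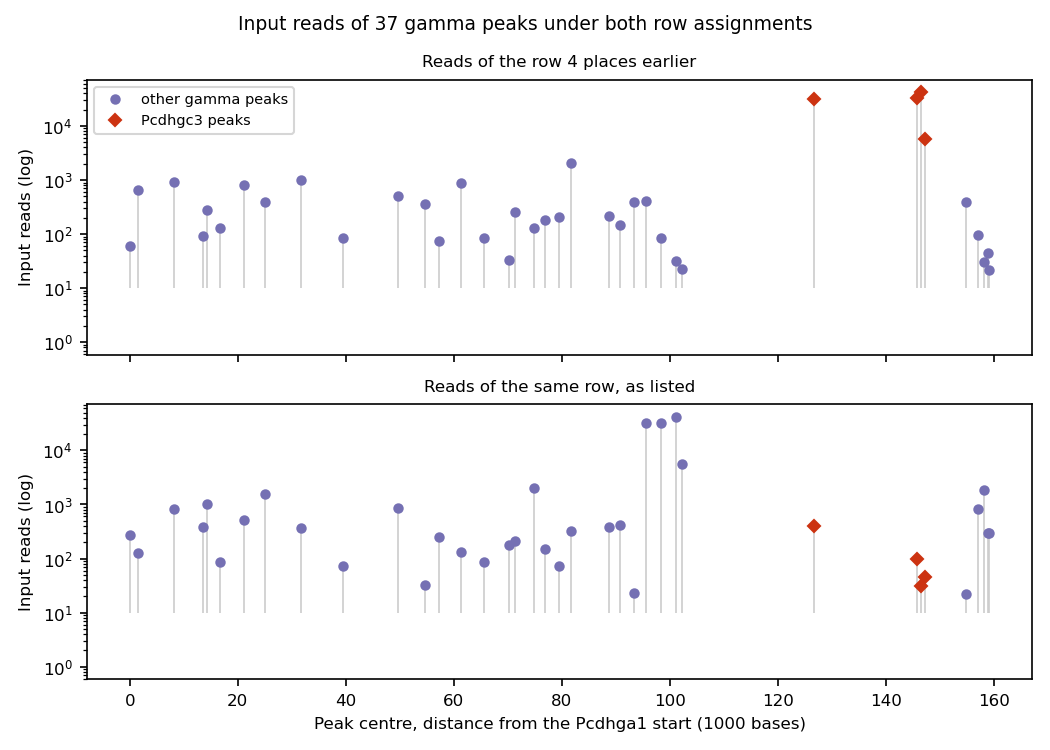
Input reads of the gamma peaks of the block that matched 4 rows earlier, in order along the chromosome, with the counts listed 4 rows earlier (top) and in the same row (bottom), on log axes. Diamonds mark the 4 Pcdhgc3 peaks, which carry the deepest counts in the top panel (5726 to 41688) and 31 to 393 input reads in the bottom panel.

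The order of single-exon and joined peaks also turned with the row. As listed, the median log2 fold change in the authors' deposited table was 3.31 over 26 single-exon peaks and 4.02 over 15 joined peaks. Read 4 rows earlier, it was 3.52 over 24 single-exon peaks and 3.24 over 13 joined peaks. Pcdhgc5 listed the lowest gamma value of the authors' deposited table at its peak 3 (1.77, 378 IP and 293 input reads), and 3.23 with 86 IP and 22 input reads when read 4 rows earlier. The highest gamma values in the authors' deposited table were 4.80 in the row of the peak joining Pcdhgb6 and Pcdhga10 (31715 IP and 5197 input reads, unclear block), 4.76 in that of Pcdhgb2 and Pcdhga5 (1835 IP and 367 input reads) and 4.73 in that of Pcdhgc3 peak 1. Single rows were not settled even at the best offset, so no isoform is ranked. All 41 gamma peaks listed the same set of 26 gene identifiers.

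Of the 3 peaks between clusters, the row-matched one lay just past Pcdhb22 (37522971, 425 bases). It held 181 IP and 136 input reads, a ratio of 1.33 (1.06 to 1.67), and was listed at 2.57 (log2 fold change) in the authors' deposited table, the lowest of the row-matched members. The other 2 lay before the gamma cluster in an unclear block, listed at 65 IP and 7 input reads and at 965 IP and 257 input reads. On the plus strand, the nearest peak upstream of the region lay 150166 bases before its first peak, at Zmat2, and the nearest downstream 440290 bases after its last, at Dele1.

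Related genes elsewhere in the genome were taken from lists written from textbook knowledge, and their values are given from row-matched blocks only. Of 12 non-clustered protocadherins, which are single-gene relatives in adhesion, 9 had a peak, as did 15 of 18 classical and atypical cadherins, against 9892 of 21900 protein-coding genes. The highest log2 fold changes in the authors' deposited table were 5.32 at Pcdh17 (1989 IP and 386 input reads), 4.76 at Pcdh10 and 4.30 at Pcdh18, over 4 genes with a row-matched peak. Among cadherins they were 5.15 at Cdh11, 4.60 at Cdh6 and 4.29 at Fat4 in the authors' deposited table, over 5 such genes. The lower ones were 3.76 at Dchs1 and 2.65 at Cdh13 in that table. The median of the highest value per gene was 3.46 over the 4626 protein-coding genes with a row-matched peak. A highest value tends to rise with the number of peaks, which was not matched here or for the lists that follow. Row-matched peaks numbered 9 at Fat4, 6 at Pcdh10 and 1 at Cdh13. The highest values at Pcdh10 and Cdh11 came from peaks with 81 and 78 input reads.

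Of 16 regulators of protocadherin promoters, 15 had a peak, against 45.2% of all protein-coding genes. The highest log2 fold changes of the 5 with a row-matched peak were 4.58 at Wapl, which releases cohesin from DNA, 4.46 at Ctcf, which binds the variable promoters, and 4.43 at Pds5b, a cohesin partner, in the authors' deposited table. The other 2 lay below the median over protein-coding genes, with 2.72 at the cohesin subunit Smc1a and 2.66 at the cohesin subunit Stag1 in that table. Ctcf held 18325 IP and 4458 input reads there. Of 12 cytoplasmic partners, 7 had a peak (58.3%), not far from that 45.2%. Only 2 were row-matched, Cyfip2 of the WAVE complex with 4.04 and Ctnnb1, which encodes beta-catenin, with 2.10 in the authors' deposited table.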

How the data were processed

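Per the submitters' processing notes, bcl2fastq 2.17.1.14, Trimmomatic 0.32, STAR 2.5.2a and the builds GRCm38.p6 and GRCh38.p13 were named, with no role given. The peak caller, the counting, the libraries pooled and the treatment of reads with several matches are given by none of the sources used here. Per the file headers, the authors deposited whole-number read counts of input and IP per peak, with no library. Per the file headers, the authors also gave a log2 fold change, a p-value and an adjusted p-value per peak. In all 21195 rows the score that the authors deposited was the adjusted p as minus log2, and the second deposited peak list held the same intervals and scores.

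Peaks were placed by RefSeq gene spans of the same build, and counts, medians, percentiles and intervals were computed in Python 3.11.15 with pandas 2.3.3, numpy 2.4.6 and scipy 1.17.1. With pooled columns no test was possible, and depth sets the intervals. The row match, its settings (blocks of 500 rows, a margin of 0.1 and offsets up to 8) and the neighbour limit of 500 bases were reached after several looks at the data. Intervals, classes and row offsets were tested on simulated data. Full values are given per cluster for the 3 peaks with the highest log2 fold change, the 3 with the most IP reads, constant-stretch peaks and peaks with fewer IP than input reads, and per list for the 3 highest genes. The members and lists were chosen with earlier results of these data known.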

Additional observations from a re-analysis of the deposited data

Results flagged for a closer look

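Peaks on the opposite strand were used in no comparison. Between the same coordinates the table lists 14 minus-strand peaks, 9 in gamma, 2 in alpha, 1 in beta and 2 outside the clusters, with 80 to 16055 IP and 12 to 4211 input reads and log2 fold changes of 1.64 to 5.09 (median 3.80) in the authors' deposited table. Of the 14, 12 overlap members, and 18 of the 99 members are overlapped, 16 of them in gamma. None of the 14 lies in a row-matched block, so their counts cannot be assigned to their positions. The nearly coincident pairs are at Pcdhga10, where the minus-strand row lists 5767 IP and 1041 input reads and the plus-strand row 408 IP and 87 input reads, and at Pcdhgc3 peak 2, where they list 302 IP and 37 input reads and 319 IP and 98 input reads. The sources used here do not say whether the counting used strand.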

How the results depend on the processing

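Over 30 results and 85 alternative values, 59 stayed within their limits, 25 moved and 1 reversed. The limits were a fixed factor for counts of peaks or genes, and mostly the interval of the main value otherwise. Some outcomes could not differ: the 1 alpha constant-stretch peak stayed at 3.96 (log2 fold change) in the authors' deposited table at each variable exon length. The tally is therefore no measure of robustness. The one that reversed was the median log2 fold change of single-exon minus joined gamma peaks in the authors' deposited table, which was 0.28 with the best offset, against -0.71 as listed. No paired analysis was possible because the read columns carry no library, and for the same reason no replicate could be left out. At an adjusted p below 1e-10 in the authors' deposited table, 9 alpha peaks remained. With at least 50 input reads, alpha had 4 single-exon peaks and 0 over several exons, and with a variable exon of 2500 bases 2 peaks joined variable and constant stretches. Using the log2 ratio of reads (pseudocount 0.5) in place of the authors' fold change gave medians of 2.32, 2.29 and 1.75 in alpha, beta and gamma, 2.37 over alpha single exons, 1.80 at the alpha constant stretch, and 1.69 and 1.94 over single-exon and joined gamma peaks. Scaling by the total IP and input reads of all peaks gave ratios of 1.80, 1.59 and 0.954 in alpha, beta and gamma, and a median log2 ratio of 0.66 over members. That scaling divides every ratio by the same 2.71, the ratio over all peaks. The alternatives with row-matched blocks, the best offset, peaks left out and members of at least 50 input reads set against like peaks were chosen after seeing the data. The beta ratio was 5.32 in row-matched blocks and 5.30 with the best offset, against 4.31 as listed. The ratio over alpha single exons was 4.15 without the peak with the most IP reads, against 5.33. The gamma ratio was 2.46 with the best offset and 4.07 without its 4 deepest peaks. The percentile of the members' median was 78.8 against peaks of at most 10000 bases, 73.2 against peaks of like input density (a measure the row mismatch also touches), and 79.9 with at least 50 input reads. The median of the row-matched members stood at 82.8 among all peaks and at 85.1 among row-matched peaks.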
